A study of Populus ussuriensis with 12 samples.

Results

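The response of wild-type (WT) poplar leaves to 4 days without water was measured as messenger RNA in 6 libraries of Populus ussuriensis, 3 from watered and 3 from drought plants. WT plants were grown in soil in individual pots and sampled at an age of 70 days, as leaves at positions 7 and 8 below the shoot tip. Watered leaves are replicates 1 to 3 and drought leaves replicates 4 to 6, with the numbers of the labels. The series also holds 3 watered and 3 drought libraries of Pu-miR172d-OE plants (OE), which overexpress the microRNA Pu-miR172d and carried the same watering treatments. The microRNA itself was not analysed here, and OE is used as the labels give it. Whether replicates came from separate plants, whether leaves were pooled and whether the OE line was 1 clone is not in the labels. The p-values therefore measure the spread among these libraries alone, and that spread may be technical.

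Values are FPKM, the fragments of a gene scaled to its length and to the fragments of the library. A gene was a member where 3 or more of the 6 WT libraries reached 1 FPKM or more, whichever group they came from. Of the 35747 genes of the deposited table, 23602 were members. Of these, 18875 carried a protein description and 15450 a biological process term, and 18438 reached 1 FPKM in all 6 libraries. A further 754 members reached it in all 3 drought libraries and no watered library, and 1316 in all 3 watered and no drought library. The filter on low values admits such genes only through the group where they are high, so their counts are no result. Of the 62 genes described below, 9 reached 1 FPKM in no library of 1 group, 5 in no watered and 4 in no drought library. For these the groups had to differ and the p is no support, and each is marked where it is described. The member nearest the threshold was Potri.006G079100, a cycloartenol synthase, whose value of rank 3 among the libraries was 1.000181 FPKM, and the nearest gene outside it was Potri.004G170650 at 0.999959 FPKM. Of the 12145 genes left out, 1359 stood at 0 in all 6 libraries. The gene names carry the prefix Potri, which is used for Populus trichocarpa, and the sources used here do not give the genome build of the positions.

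When soil dries, a leaf closes its stomata and the hormone abscisic acid (ABA) accumulates. Carbon dioxide then enters the leaf more slowly, cells stop expanding, and proteins and sugars that protect dried cells are made. Prolonged drought is also known to hasten ageing of older leaves, in which chloroplasts are dismantled and their nitrogen is exported to other organs. In parallel, the respiratory chain, amino acids and fatty acids take on a larger part in energy supply.

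The WT libraries held 9682111 to 10557749 fragments in watered and 11645616 to 12028945 in drought leaves, a total read from the size of the smallest FPKM steps. Watering lay along principal component 1, which held 83.3% of the variance. Drought replicate 6 stood apart from replicates 4 and 5 on the second component (8.96% of the variance), at -71.3 against 35.0 and 28.3. Its mean correlation with the libraries of its group was 0.922, against 0.944 and 0.949 for the other drought libraries and 0.971 to 0.976 for the watered ones. Its counts differed from those of drought replicates 4 and 5 by a chi-square per gene of 75.2 and 74.5, where 1 is sampling noise, while replicates 4 and 5 differed by 26.3. For this reason counts are also given without drought replicate 6. Of the summed FPKM, the top 100 genes held 26.4 to 27.8% in watered and 16.7 to 20.4% in drought leaves, and 667 to 776 genes against 1026 to 1402 made up 50% of the sum. FPKM is relative to the library, and the median change over all members was 0.25 on the log2 scale as deposited and 0 after scaling by the median of ratios. Below, counts after that scaling follow those from the deposited values for most lists.

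"Rose" and "fell" are kept for genes with an adjusted p (Benjamini-Hochberg) under 0.05 in limma. Changes are on the log2(FPKM + 1) scale, which understates those of weakly expressed genes. Drought raised 8322 members, 35.3% of those tested, and lowered 5210, 22.1%. In either direction 57.3% were called, and in 64.2% of members the 3 watered and 3 drought values did not overlap (9322 higher in every drought library, 5819 lower). Rises made up 61.5% of the calls as deposited and 45.7% after median-of-ratios scaling, where 5540 members (23.5%) rose and 6582 (27.9%) fell. With a change of at least 1 on the log2 scale, 3831 rose and 3893 fell. Changes of at least 4 numbered 153 upward and 240 downward. The middle range of all changes ran from -0.49 to 0.74.

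The most abundant transcripts behaved differently from the rest. Among the 238 members with a mean of at least 300 FPKM, 71 rose and 109 fell, with a median change of -0.59. The 807 members between 100 and 300 FPKM had a median of 0.42, those from 10 to 30 FPKM 0.35, and the 3107 members below 2 FPKM -0.06. The plot of calls per gene list sets out how 53 groups of genes, found by their descriptions, divided between rises and falls. Each list's counts are a description beside the 35.3% and 22.1% of all members, and no list was tested as a set. A list's share of the summed FPKM covers all its genes, also those left out by the filter.

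**Figure D1:**
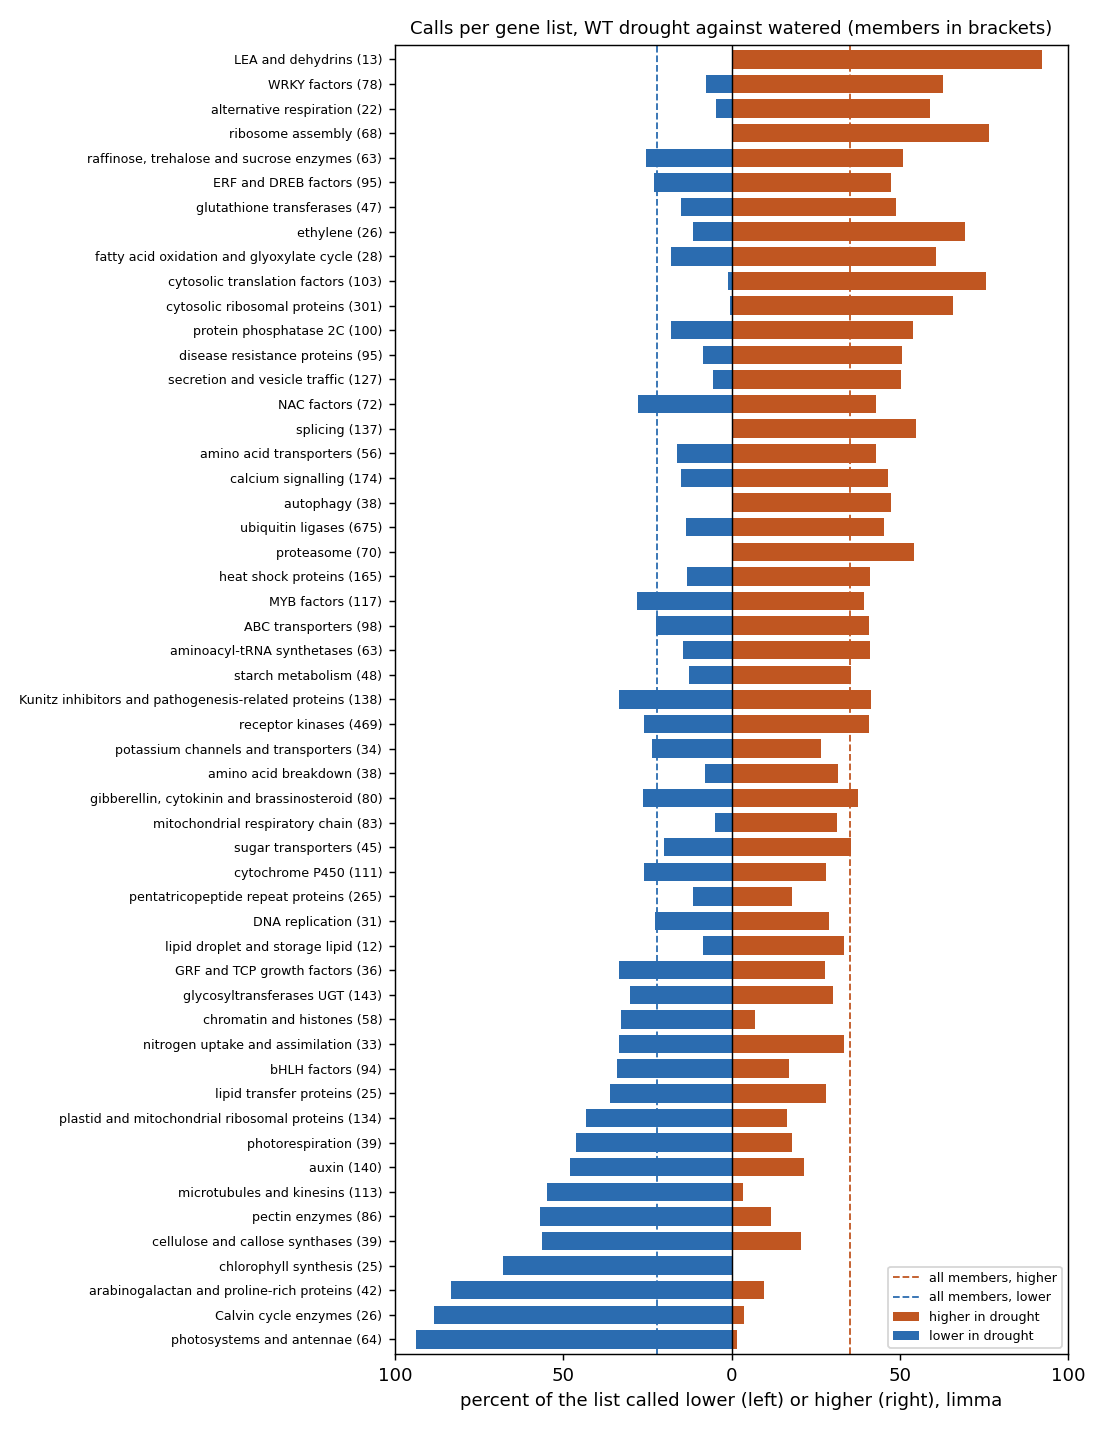
Horizontal bars give the percent of each of 53 gene lists called higher (right) or lower (left) in WT drought leaves by limma, with the number of members in brackets, and dashed lines mark the 35.3% and 22.1% of all members. Photosystem and Calvin cycle genes fill the left side, LEA proteins, ribosome assembly and translation factors the right, and most transcription factor families are split.

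Genes of photosynthesis lost most of their transcripts. Of 64 members of the photosystems and their antennae, the complexes that capture light, 60 fell and 1 rose. Their median change was -3.06. After scaling, 60 fell, with a median of -3.35. Their share of the summed FPKM was 11.55, 12.04 and 10.34% in the watered libraries and 1.29, 1.37 and 1.71% in the drought libraries. Every drought library lay below every watered one, with an exact two-sided permutation p of 0.1, the smallest that 3 against 3 allows. Of 26 enzymes of the Calvin cycle, which fixes carbon dioxide, 23 fell and 1 rose, with a median of -3.01, and 24 fell after scaling. Their share was 4.52, 4.78 and 3.69% in watered and 0.208, 0.246 and 0.695% in drought leaves, where replicate 6 was the highest.

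The most abundant of these was Potri.004G100000 (chromosome 4, 8655675 to 8657223, minus strand), a small chain of Rubisco, the enzyme that fixes carbon dioxide. It stood at 7707, 8600 and 6389 FPKM in watered and 90.7, 155 and 483 FPKM in drought leaves, a change of -5.30 ± 0.72 (SE, n = 3 against 3; limma adjusted p = 8.9e-05). The highest drought value, that of replicate 6, was far below the lowest watered one. Potri.005G239200 (chromosome 5, 24584837 to 24585919, minus strand), a chlorophyll-binding protein of the antenna, went from 3536, 4348 and 3140 FPKM to 61.0, 163 and 157 FPKM, by -4.96 ± 0.48 (adjusted p = 7.96e-06). Plastocyanin B (Potri.002G016000), which carries electrons between the photosystems, went from 2288, 2531 and 2056 FPKM to 32.9, 37.1 and 44.0 FPKM, by -5.88 ± 0.62 (adjusted p = 1.37e-05). In each of these genes the groups lay far apart. The single photosystem gene that rose was Potri.001G438800, the photosystem II 10 kDa polypeptide, with 178, 80.1 and 113 FPKM in watered and 228, 263 and 286 FPKM in drought leaves (1.13 ± 0.43, adjusted p = 0.0412). Its call ended after median-of-ratios scaling (adjusted p = 0.101), with no filter (0.0623), and without watered replicate 2 (0.158) or 3 (0.0888) or drought replicate 4 (0.0633), 5 (0.0854) or 6 (0.0879), in a range of 0.0156 to 0.158 over all alternatives.

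Chlorophyll synthesis and part of photorespiration also fell. Of 25 members of chlorophyll synthesis 17 fell and 0 rose (limma; 1 rose at an unadjusted p under 0.05 and 0 with voom on recovered fragments), with a median of -1.18, and 19 fell after scaling. Glutamyl-tRNA reductase 1 (Potri.002G107800), the first committed enzyme of that pathway, stood at 207, 235 and 170 FPKM in watered and 2.16, 6.92 and 10.5 FPKM in drought leaves (-4.94 ± 0.41, adjusted p = 2.42e-06). Potri.016G025000, the cyclase that closes the fifth ring of chlorophyll, went from 569, 642 and 453 FPKM to 16.3, 21.9 and 26.3 FPKM (-4.64 ± 0.33, adjusted p = 8.02e-07). For both, the drought values were a small part of any watered value. Photorespiration, which recovers carbon from the side reaction of Rubisco with oxygen, had 18 of 39 members of the list lower and 7 higher, and 21 and 5 after scaling. The list's share went from 1.05 ± 0.0639% to 0.227 ± 0.0993% (SD, n = 3; exact permutation p = 0.1). The table's process term photorespiration gave another picture, with 13 of 61 members lower (21.3%), near the 22.1% of all members, 10 higher and a median of -0.12. Its enzyme glycolate oxidase (Potri.001G394400), described as a peroxisomal (S)-2-hydroxy-acid oxidase, stood at 721, 724 and 680 FPKM in watered leaves and at 18.4, 33.5 and 121 FPKM in drought leaves (-4.03 ± 0.78, adjusted p = 0.00108). The drought values spread widely, with replicate 6 the highest, and all stayed below the watered ones.

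Among ribosomal proteins of the organelles, falls lay mainly in those described as chloroplastic. Of 134 members described as proteins of plastid or mitochondrial ribosomes, 58 fell and 22 rose, with a median of -0.32. Read by the location in the description, a division made after these values were seen, 53 of 74 chloroplastic members fell and 3 rose (median -1.27), while 1 of 15 mitochondrial members fell and 6 rose (median 0.45). After scaling, 56 chloroplastic members fell and 0 rose (limma; 4 rose at an unadjusted p under 0.05 and 3 with voom, both on values as deposited), and 4 mitochondrial members rose and 2 fell. Mitochondrial members rose in 40% as deposited, near the 35.3% of all members. Their median change was 0.89, 0.32 and 0.06 in drought replicates 4, 5 and 6. A further 46 members with no location named held 14 that rose and 4 that fell, and 5 and 6 after scaling. The chloroplast protein L27 (Potri.001G329500) went from 374, 405 and 332 FPKM to 42.8, 35.2 and 43.5 FPKM (-3.16 ± 0.40, adjusted p = 5.15e-05). Its drought values lay close together. The rises among all 134 depended on single libraries, with 14 rises without drought replicate 4 and 37 without drought replicate 6. Of 265 pentatricopeptide repeat proteins, which process RNA in these organelles, 48 rose and 30 fell, and 18 rose and 43 fell after scaling. Their rises numbered 25 without watered replicate 2, 30 without watered replicate 3, 24 without drought replicate 4 and 32 without drought replicate 6.

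Cytosolic protein synthesis changed in the opposite direction. Of 301 cytosolic ribosomal protein genes 198 rose and 1 fell, with a median of 0.65. After median-of-ratios scaling 96 rose and 3 fell, with a median of 0.36. Their share of the summed FPKM was 3.47, 3.64 and 3.95% in watered and 6.81, 6.49 and 4.95% in drought leaves (exact permutation p = 0.1). The groups did not overlap, but the median change was 0.88 in drought replicate 4, 0.79 in replicate 5 and 0.28 in replicate 6, and 249 rose without replicate 6. Of 68 members of ribosome assembly, the proteins that process ribosomal RNA in the nucleolus, 52 rose and 0 fell (limma; 1 fell at an unadjusted p under 0.05 and 0 with voom), with a median of 0.77, and 35 rose and 1 fell after scaling. Of 103 cytosolic translation factors 78 rose and 1 fell, with a median of 0.67, and 52 rose and 3 fell after scaling. Of 137 splicing proteins 75 rose and 0 fell (limma; 0 fell at an unadjusted p under 0.05 and with voom), and 40 rose and 4 fell after scaling.

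Single genes of this group changed less than those of photosynthesis, but their libraries also did not overlap. Elongation factor 1-alpha (Potri.010G218600), which brings charged tRNAs to the ribosome, stood at 53.98, 55.02 and 68.43 FPKM in watered and 209, 173 and 142 FPKM in drought leaves (1.53 ± 0.18, adjusted p = 3.04e-05). Nucleolin 2 (Potri.007G071100), a nucleolar protein of ribosome assembly, went from 29.2, 21.4 and 23.6 FPKM to 93.3, 73.3 and 74.2 FPKM (1.66 ± 0.17, adjusted p = 1.14e-05). The splicing factor SR30 (Potri.013G015500) went from 2.69, 3.41 and 3.89 FPKM to 5.79, 16.6 and 20.3 FPKM (1.67 ± 0.36, adjusted p = 0.00204), and drought replicate 4 was the low one. Aminoacyl-tRNA synthetases, which charge tRNAs, were divided, with 26 of 63 higher and 9 lower, and with 11 higher and 17 lower after scaling. Their falls numbered 4 without watered replicate 1 or 2 or drought replicate 5. An alanine-tRNA ligase (Potri.010G024900) rose from 12.1, 9.84 and 13.8 FPKM to 89.3, 88.3 and 64.6 FPKM (2.66 ± 0.20, adjusted p = 1.04e-06), the largest rise of the list among members of at least 5 FPKM.

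**Figure D2:**
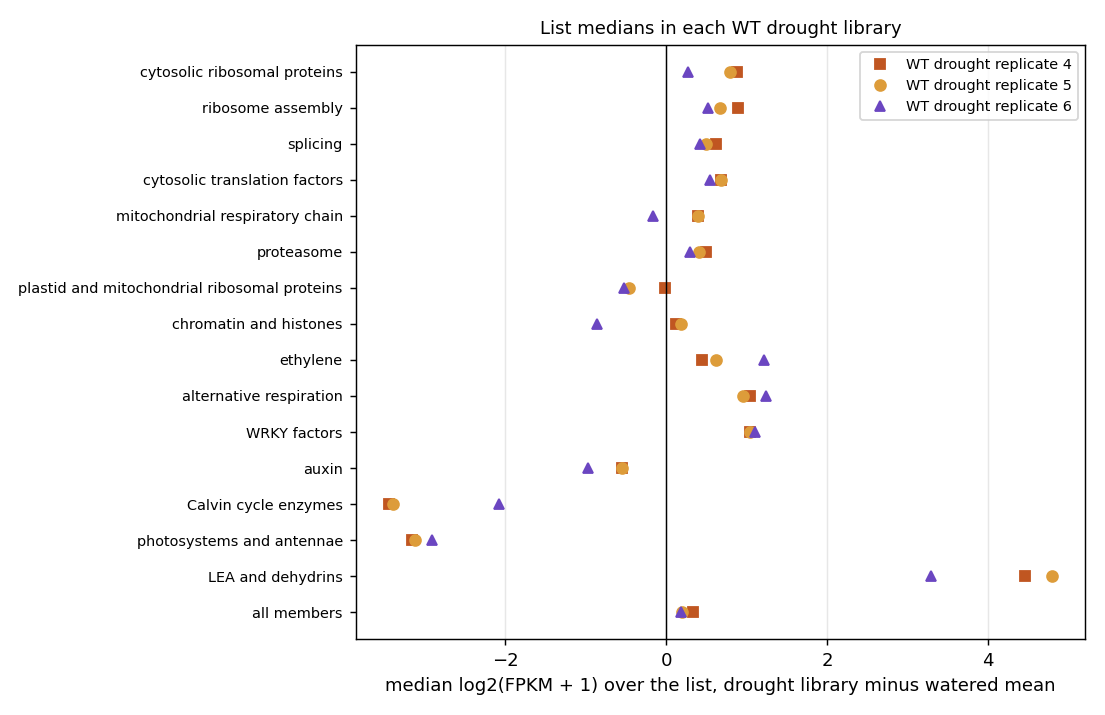
Each point is the median over a gene list of log2(FPKM + 1) in 1 WT drought library minus the mean of the watered libraries. Cytosolic ribosomal proteins stand at 0.88 and 0.79 in replicates 4 and 5 and at 0.28 in replicate 6, and histones at 0.12, 0.19 and -0.86, whereas photosystem and WRKY medians lie close together.

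Among genes of protein breakdown and vesicle traffic, rises exceeded the 35.3% of all members in the deposited values. After scaling, when 23.5% of all members rose, the proteasome and autophagy lists lay below that share. Of 70 proteasome subunits 38 rose and 0 fell (limma; 0 fell at an unadjusted p under 0.05 and with voom), with a median of 0.38. After scaling 9 rose and 1 fell, with a median of 0.10, and 22 rose without watered replicate 1, without watered replicate 2 or without drought replicate 4. Of 675 ubiquitin ligases, which mark proteins for the proteasome, 306 rose and 92 fell, and 207 rose and 130 fell after scaling. Of 38 autophagy proteins, which enclose cell contents for digestion in the vacuole, 18 rose and 0 fell (limma; 0 fell at an unadjusted p under 0.05 and with voom), 7 rose after scaling, and 10 rose without watered replicate 2. Of 127 proteins of secretion and vesicle traffic 64 rose and 7 fell, and 41 rose and 13 fell after scaling. Heat shock proteins and their partners, which fold proteins, had 68 of 165 higher and 22 lower, and 40 and 29 after scaling.

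The ubiquitin ligase MIEL1 (Potri.006G245400), known in Arabidopsis to degrade MYB transcription factors, had 10.8, 5.37 and 8.40 FPKM in watered and 158, 158 and 144 FPKM in drought leaves (4.11 ± 0.31, adjusted p = 1.18e-06). The 3 drought libraries had a mean of 153 FPKM with an SD of 8.02 FPKM. ATG8i (Potri.010G153400), a protein that coats autophagic membranes, went from 11.3, 11.8 and 20.2 FPKM to 60.03, 61.34 and 48.93 FPKM (1.95 ± 0.23, adjusted p = 3.63e-05). The proteasome subunit alpha type-7 (Potri.004G174200) went from 38.8, 45.1 and 46.5 FPKM to 103, 90.7 and 66.8 FPKM (0.96 ± 0.17, adjusted p = 0.000571). Its lowest drought library was replicate 6, still above the watered ones. Syntaxin-121 (Potri.016G068600), which fuses vesicles with the plasma membrane, went from 3.49, 1.73 and 6.41 FPKM to 88.2, 58.4 and 66.9 FPKM (3.98 ± 0.47, adjusted p = 3.2e-05).

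Lists of wall proteins, wall enzymes and microtubule proteins held more falls than rises. Process terms of the table were less uniform. Cell wall organization had 55 of 268 members higher and 116 lower, and 43 and 128 after scaling. Plant-type cell wall biogenesis had 11 of 21 higher and 3 lower, and 5 and 3 after scaling. Regulation of growth had 62 of 158 higher and 35 lower, and 35 and 42 after scaling. Of 42 arabinogalactan and proline-rich wall proteins 35 fell and 4 rose, with a median of -2.37, and their share of the summed FPKM went from 0.816 ± 0.179% to 0.105 ± 0.0377% (SD, n = 3; exact permutation p = 0.1). Of 86 pectin enzymes 49 fell and 10 rose (median -0.93), of 39 cellulose and callose synthases 22 fell and 8 rose (median -0.95), and of 113 tubulins, kinesins and microtubule proteins 62 fell and 4 rose (median -0.76). After scaling the falls numbered 36, 53, 23 and 77. Among the largest falls was that of Potri.018G025900 (chromosome 18, 2065664 to 2069015, plus strand), the proline-rich protein DC2.15, with 1290, 1848 and 1117 FPKM in watered and 0.193, 0.0964 and 3.09 FPKM in drought leaves (-9.63 ± 0.50, adjusted p = 1.05e-07). A transcript among the more abundant of the watered leaf was thus near the detection limit in drought replicates 4 and 5. Pectinesterase 35 (Potri.014G149700), which modifies wall pectin, went from 299, 427 and 572 FPKM to 2.33, 1.26 and 7.31 FPKM (-6.72 ± 0.44, adjusted p = 4.7e-07). Cellulose synthase 9 (Potri.005G194200) went from 25.3, 29.9 and 26.4 FPKM to 2.21, 1.99 and 3.48 FPKM (-3.01 ± 0.24, adjusted p = 1.91e-06).

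Other members of the wall families were high in drought leaves. Expansin-A8 (Potri.013G154700), which loosens walls as cells expand, fell from 628, 695 and 436 FPKM to 0.626, 1.30 and 1.98 FPKM (-8.01 ± 0.40, adjusted p = 7.45e-08). Expansin-B2 (Potri.014G066300) rose from 0, 0.0888 and 0.0943 FPKM to 222, 160 and 54.1 FPKM (6.89 ± 0.41, adjusted p = 2.27e-07). The high expansin of watered leaves was thus low in drought leaves, and the reverse. A pectate lyase (Potri.001G339500), which cuts pectin, rose from 0.339, 0.986 and 0.185 FPKM to 52.2, 37.5 and 56.4 FPKM (5.06 ± 0.31, adjusted p = 2.88e-07). Expansin-B2 and this lyase passed the filter only through the drought libraries. Callose synthase 3 (Potri.001G230000), whose product callose seals pores between cells, rose from 15.3, 8.79 and 12.7 FPKM to 49.0, 35.0 and 63.4 FPKM (1.91 ± 0.34, adjusted p = 0.000654).

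Some genes of dividing cells fell strongly, though process terms of division held both rises and falls. Cell division had 76 of 273 members higher and 70 lower, and 41 and 95 after scaling. Mitotic nuclear division had 18 of 106 higher and 25 lower, and 8 and 39 after scaling. Chromosome segregation had 12 of 25 higher and 2 lower, and 4 and 3 after scaling. A beta-tubulin (Potri.003G126800), a building block of microtubules, went from 31.9, 30.2 and 28.1 FPKM to 0.230, 0.184 and 1.52 FPKM (-4.33 ± 0.34, adjusted p = 1.72e-06). KNOLLE (Potri.013G053200), the syntaxin that builds the new wall between daughter cells, went from 4.93, 6.71 and 4.22 FPKM to 0, 0.181 and 0 FPKM (-2.55 ± 0.36, adjusted p = 0.000117). Histone H3.2 (Potri.002G028800), made while DNA is copied, went from 24.4, 30.9 and 30.8 FPKM to 1.49, 0.802 and 1.67 FPKM (-3.69 ± 0.34, adjusted p = 5.46e-06). Each of these fell in every drought library, and KNOLLE passed the filter only through the watered libraries. As a group, 19 of 58 histones fell and 4 rose. Without drought replicate 6, 17 fell and 15 rose, so that library changed mainly the number of rises, with list medians of 0.12, 0.19 and -0.86 in replicates 4, 5 and 6. DNA replication proteins had 9 of 31 higher and 7 lower, and 5 and 7 after scaling. TCP and growth-regulating factors, which set leaf size, had 10 of 36 higher and 12 lower, and 9 and 15 after scaling, among them TCP4 (Potri.013G119400), which fell from 21.3, 19.9 and 18.2 FPKM to 1.76, 1.94 and 1.71 FPKM (-2.89 ± 0.30, adjusted p = 1.31e-05). Its 3 libraries agreed closely in both groups.

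An aquaporin and auxin genes were among those that fell. The aquaporin PIP1-2 (Potri.009G128500) went from 96.2, 122 and 113 FPKM to 0, 0.115 and 0.0558 FPKM (-6.72 ± 0.43, adjusted p = 4.01e-07), and 4 members with this description ranged from -6.72 to 2.57, with 2 lower and 1 higher. Of 140 genes of auxin synthesis, transport and response 67 fell and 30 rose, with a median of -0.50, and 73 and 26 after scaling. The table's process term response to auxin, which holds other genes too, had 83 of 210 higher and 51 lower. SAUR20 (Potri.004G165200), a small auxin-induced protein of cell expansion, stood at 40.4, 44.9 and 46.6 FPKM in watered leaves and is listed at 0 in all 3 drought libraries (limma adjusted p = 1.41e-07). PIP1-2 and SAUR20 passed the filter only through the watered libraries. Genes of gibberellin, cytokinin and brassinosteroid were divided, with 30 of 80 higher and 21 lower, and 24 and 23 after scaling. The ethylene list had 18 of 26 higher and 3 lower, and 11 and 3 after scaling. Its rises numbered 12 without watered replicate 2 and 20 without drought replicate 4, and its falls 1 without drought replicate 6 and 0 without watered replicate 3. Of its biosynthetic enzymes, ACC synthase 1 (Potri.002G163700) rose from 0.0525, 0 and 0.629 FPKM to 32.9, 53.1 and 60.1 FPKM (5.33 ± 0.40, adjusted p = 1.15e-06). ACC synthase 1 passed the filter only through the drought libraries. An ACC oxidase (Potri.014G159000), which makes ethylene from the product of that enzyme, rose from 939, 1046 and 1296 FPKM to 2492, 3009 and 3774 FPKM (1.49 ± 0.34, adjusted p = 0.00303). With no filter on low values its adjusted p was 0.0503, in a range of 0.000257 to 0.0503 over all alternatives.

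Among genes of energy supply, the bypasses of the respiratory chain and fatty acid oxidation had more rises than the 35.3% of all members as deposited. The lists of the main chain and of amino acid breakdown did not. Of 22 members of alternative respiration, the bypasses of the respiratory chain, 13 rose and 1 fell, with a median of 0.98, and 11 and 3 after scaling. The alternative oxidase 1a (Potri.012G001500), which passes electrons to oxygen without making ATP, stood at 3.84, 1.97 and 2.49 FPKM in watered and 62.3, 72.9 and 70.2 FPKM in drought leaves (4.23 ± 0.38, adjusted p = 4.07e-06). The drought libraries lay close together. The main chain changed less, with 26 of 83 members higher (31.3%) and 4 lower, 12 and 7 after scaling, and 41 higher without drought replicate 6. Its flavoprotein of succinate dehydrogenase (Potri.007G026400) rose from 35.7, 33.6 and 34.8 FPKM to 136, 166 and 118 FPKM (1.97 ± 0.15, adjusted p = 1.43e-06). Fatty acid oxidation and the glyoxylate cycle had 17 of 28 members higher and 5 lower, and 11 and 6 after scaling. The peroxisomal 3-ketoacyl-CoA thiolase 2 (Potri.001G051900), which shortens fatty acids, rose from 63.4, 52.6 and 69.6 FPKM to 342, 434 and 286 FPKM (2.49 ± 0.19, adjusted p = 1.26e-06). Amino acid breakdown had 12 of 38 higher (31.6%) and 3 lower. After scaling 11 of these rose, a larger share than the 23.5% of all members, and 6 fell. Storage lipid proteins had 4 of 12 higher and 1 lower, and 4 and 2 after scaling. The process term tricarboxylic acid cycle had 37 of 55 members higher and 4 lower, and 29 and 6 after scaling.

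Carbohydrate genes changed in both directions. Enzymes of raffinose, trehalose and sucrose had 32 of 63 higher and 16 lower, and 29 and 18 after scaling. Galactinol synthase makes the donor for raffinose, a sugar known to protect dried cells, and its 6 members under the description Galactinol synthase 1 ranged from -4.91 to 8.26, with 3 higher and 2 lower. Potri.008G101000 rose from 0.0730, 0 and 0.477 FPKM to 213, 1041 and 202 FPKM (8.26 ± 0.51, adjusted p = 2.86e-07), and Potri.010G150400 from 1.41, 1.86 and 1.90 FPKM to 428, 846 and 225 FPKM (7.32 ± 0.37, adjusted p = 8.3e-08). In both, drought replicate 5 was the highest, and Potri.008G101000 passed the filter only through the drought libraries. Potri.010G042000, the copy in use in watered leaves, fell from 246, 128 and 123 FPKM to 1.26, 3.15 and 14.8 FPKM (-4.90 ± 0.68, adjusted p = 0.000108).

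Starch genes, 17 of 48 higher and 6 lower (16 and 10 after scaling, and 17 and 11 without drought replicate 6), showed the same kind of exchange. A large subunit of ADP-glucose pyrophosphorylase, which makes the precursor of starch, rose as Potri.002G033400 from 3.31, 3.76 and 4.00 FPKM to 55.7, 52.0 and 21.4 FPKM (3.12 ± 0.30, adjusted p = 7.69e-06). Another, Potri.008G195100, fell from 231, 201 and 166 FPKM to 19.2, 16.6 and 25.9 FPKM (-3.23 ± 0.29, adjusted p = 4.07e-06). Beta-amylase 1 (Potri.008G174100), which breaks starch down to maltose, rose from 19.8, 14.2 and 14.4 FPKM to 90.1, 133 and 213 FPKM (3.02 ± 0.28, adjusted p = 4.95e-06). Here drought replicate 6 was the highest library.

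Sugar transporters had 16 of 45 members higher (35.6%) and 9 lower (20%), near the balance of all members as deposited. After scaling 15 rose and 12 fell, while over all members falls exceeded rises. Their share of the summed FPKM was 0.113 ± 0.00937% in watered and 0.281 ± 0.0314% in drought leaves (SD, n = 3; exact permutation p = 0.1). Without SWEET15 (Potri.001G060900), left out after its values were seen, it was 0.113 ± 0.00931% and 0.138 ± 0.0381% (exact permutation p = 0.4), so the difference lay almost wholly in that gene. SWEET15 (chromosome 1, 4680868 to 4683287, minus strand), an exporter of sucrose that marks leaf ageing in Arabidopsis, had 1.08, 0.0793 and 0.421 FPKM in watered and 1048, 1274 and 458 FPKM in drought leaves (9.17 ± 0.49, adjusted p = 1.14e-07). It was nearly silent in watered and highly abundant in every drought library. Amino acid transporters had 24 of 56 higher and 9 lower, and 20 and 12 after scaling. Proline transporter 1 (Potri.010G194600) rose from 1.90, 3.04 and 2.81 FPKM to 36.6, 35.6 and 31.2 FPKM (3.32 ± 0.18, adjusted p = 1.14e-07). Nitrogen uptake and assimilation was divided, with 11 of 33 higher and 11 lower, 6 and 12 after scaling, and 7 higher without watered replicate 2. Within it the cytosolic glutamine synthetase 1-1 (Potri.005G093200), known to recycle ammonium in ageing leaves, rose from 12.6, 19.5 and 27.2 FPKM to 71.6, 104 and 135 FPKM (2.35 ± 0.40, adjusted p = 0.000435). The chloroplast enzyme (Potri.008G200100), which recovers ammonium from photorespiration, fell from 448, 492 and 414 FPKM to 59.0, 35.9 and 87.0 FPKM (-2.96 ± 0.41, adjusted p = 0.000102). Potassium channels and transporters had 9 of 34 higher and 8 lower, and 9 and 10 after scaling, and ABC transporters 40 of 98 higher and 22 lower, and 32 and 28 after scaling.

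**Figure D3:**
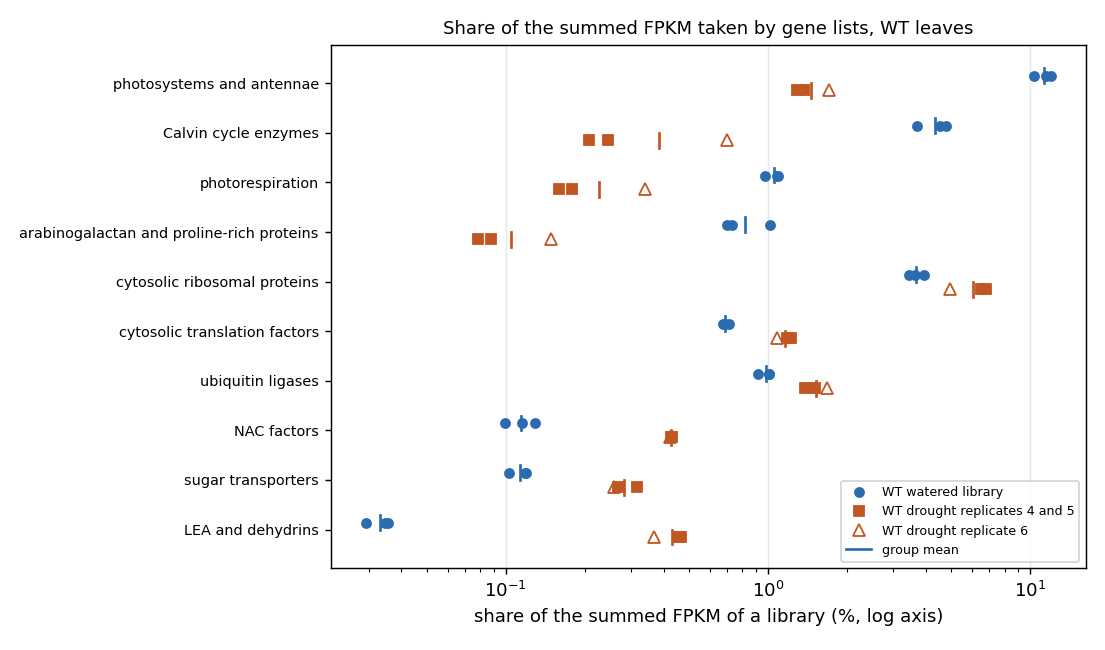
Points give the share of the summed FPKM of each WT library taken by gene lists, on a log axis, with short lines at the group means (n = 3) and drought replicate 6 as an open triangle. Photosystem genes drop from 10.34 to 12.04% to 1.29 to 1.71%, and cytosolic ribosomal proteins rise from 3.47 to 3.95% to 4.95 to 6.81%.

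Families of transcription factors differed in their balance. Of 78 WRKY factors, many of which act in defence and ageing, 49 rose and 6 fell, with a median of 1.11, and 42 and 11 after scaling. ERF and DREB factors had 45 of 95 higher and 22 lower, NAC factors 31 of 72 higher and 20 lower, and MYB factors 46 of 117 higher and 33 lower. After scaling these were 43 and 26, 29 and 23, and 44 and 36. In bHLH factors the falls were more numerous, with 32 of 94 lower and 16 higher, and 41 and 12 after scaling. NAC072 (Potri.011G123300), an ABA-responsive factor of drought and ageing in Arabidopsis, rose from 8.78, 5.09 and 10.5 FPKM to 519, 535 and 359 FPKM (5.72 ± 0.27, adjusted p = 5.68e-08). WRKY75 (Potri.015G099200), a factor of leaf ageing in Arabidopsis, rose from 1.59, 0.489 and 1.21 FPKM to 62.8, 59.4 and 79.7 FPKM (5.05 ± 0.42, adjusted p = 2.74e-06). For both, every drought library lay far above every watered one. RAP2-3 (Potri.010G006800), a factor of low-oxygen and stress responses, rose from 14.2, 7.10 and 10.8 FPKM to 1237, 2065 and 797 FPKM (6.81 ± 0.44, adjusted p = 4.29e-07). NAC043 (Potri.014G104800), known in Arabidopsis as a master switch of secondary walls, fell from 8.5003, 14.7 and 25.1 FPKM to 0.0579, 0.636 and 0.505 FPKM (-3.51 ± 0.34, adjusted p = 7.16e-06). This factor passed the filter only through the watered libraries. Watered replicate 1 was the lowest and replicate 3 the highest of its group, as in the sums of xylem markers given below, and the part of those in its fall was not tested.

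Signalling and defence lists held a larger share of rises than all members, whose share was 35.3% as deposited and 23.5% after scaling. Calcium sensors and their kinases had 81 of 174 members higher and 26 lower, and 62 and 37 after scaling. Protein phosphatases 2C, among them those that hold back ABA signalling, had 54 of 100 higher and 18 lower, and 46 and 24 after scaling. The phosphatase 2C 3 (Potri.009G037300) rose from 2.04, 3.18 and 3.42 FPKM to 185, 166 and 96.5 FPKM (5.24 ± 0.26, adjusted p = 7.09e-08). Receptor kinases of the cell surface had 191 of 469 higher (40.7%) and 122 lower (26.01%), a balance near that of all members as deposited. After scaling 170 rose and 146 fell, while over all members falls exceeded rises (27.9% against 23.5%). Disease resistance proteins, the receptors of immunity inside cells, had 95 members of 606 genes in the table. Of these 48 rose and 8 fell, 31 and 14 after scaling, and 13 fell without drought replicate 6. Kunitz inhibitors and pathogenesis-related proteins were mixed, with 57 of 138 higher (41.3%) and 46 lower (33.3%), and 48 and 47 after scaling. An endochitinase (Potri.004G182000), which cuts the chitin of fungal walls, rose from 0.171, 0.409 and 3.91 FPKM to 57.3, 90.5 and 63.0 FPKM (5.12 ± 0.51, adjusted p = 8.78e-06).

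Genes that detoxify or cover the leaf surface changed in both directions. Glutathione transferases, which tag reactive compounds, had 23 of 47 higher and 7 lower, and 20 and 11 after scaling. Cytochromes P450 had 31 of 111 higher and 29 lower, and 25 and 34 after scaling. Glycosyltransferases, which add sugars to small molecules, had 43 of 143 higher and 43 lower, and 35 and 50 after scaling. CYP86A22 (Potri.003G129100), a fatty acid oxidase of a family that makes cutin and suberin, fell from 29.4, 39.9 and 37.4 FPKM to 1.92, 0.977 and 0.985 FPKM (-4.01 ± 0.39, adjusted p = 7.96e-06). Lipid transfer proteins, small carriers of lipids found in walls and cuticles, had 7 of 25 higher and 9 lower, and 7 and 10 after scaling. Among them, the pEARLI1-like protein (Potri.006G065500) fell from 750, 921 and 531 FPKM to 0, 0 and 1.24 FPKM (-9.10 ± 0.37, adjusted p = 2.3e-08). A non-specific lipid-transfer protein (Potri.004G086500) rose from 43.8, 28.7 and 29.6 FPKM to 922, 1608 and 1115 FPKM (5.10 ± 0.34, adjusted p = 4.77e-07). Neither gene had overlapping groups, and the group's few strong members point in opposite directions.

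Late embryogenesis abundant (LEA) proteins and dehydrins, which protect cells as they dry, had 12 of 13 members higher and 0 lower (limma; 0 fell at an unadjusted p under 0.05 and with voom), with a median of 3.90. After scaling 11 rose and 1 fell. LEA D-29 (Potri.005G122400) rose from 3.32, 2.11 and 2.84 FPKM to 248, 186 and 166 FPKM (5.73 ± 0.22, adjusted p = 2.02e-08). Metallothioneins, small metal-binding proteins that rank among the most abundant leaf transcripts, did not move together. The type 3 gene Potri.011G118900 rose from 86.2, 19.1 and 64.7 FPKM to 1683, 3943 and 4099 FPKM (5.95 ± 0.50, adjusted p = 2.71e-06). The type 2 gene Potri.006G085200 rose from 1703, 804 and 1357 FPKM to 8345, 8664 and 5529 FPKM (2.58 ± 0.47, adjusted p = 0.000678). Another type 2 gene, Potri.009G030800, had 13009, 10978 and 11817 FPKM in watered and 7847, 10603 and 1921 FPKM in drought leaves (-1.13 ± 0.67, adjusted p = 0.168). Its drought values lay below the watered ones, but replicate 6 stood far from replicates 4 and 5 and the gene was not called.

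**Figure D4:**
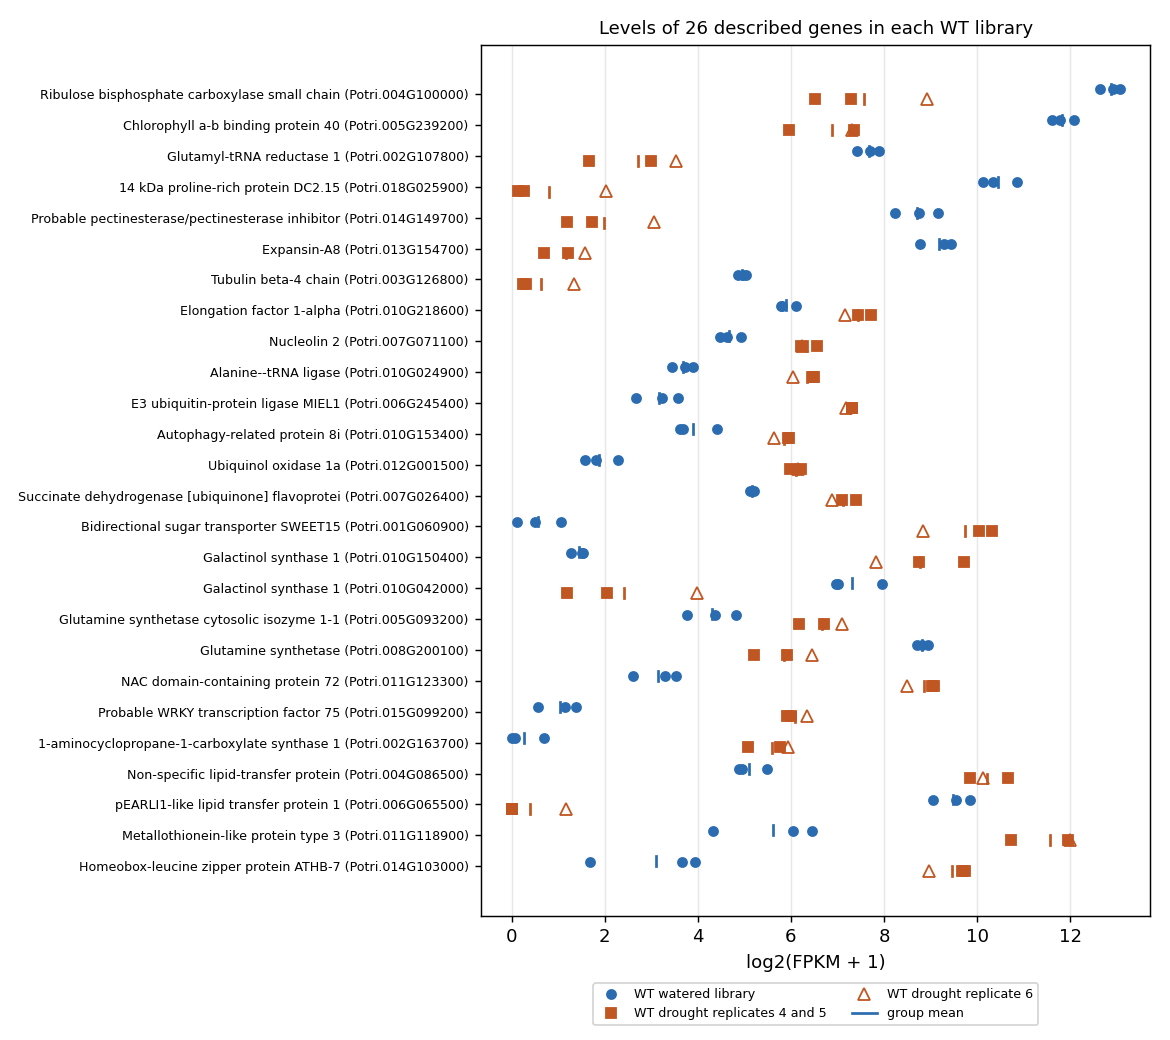
Levels of 26 described genes as log2(FPKM + 1) in each WT library, with circles for watered, squares for drought replicates 4 and 5, an open triangle for drought replicate 6, and lines at the group means (n = 3). SWEET15 and the galactinol synthase Potri.010G150400 move from low to high levels, and DC2.15 and the pEARLI1-like protein move the other way.

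Outside these lists the changes reached the same size. CEN-like protein 1 (Potri.015G141300), a relative of the flowering repressor TERMINAL FLOWER 1, rose from 0.770, 0 and 0.504 FPKM to 795, 1095 and 209 FPKM (8.68 ± 0.49, adjusted p = 1.56e-07). It was close to undetected in every watered library and abundant in every drought library, least so in replicate 6. This gene passed the filter only through the drought libraries. Neighbouring genes on chromosome 10, both described as Steroid 5-alpha-reductase DET2, an enzyme of brassinosteroid synthesis, moved in opposite directions. Potri.010G245200 (22019530 to 22020669, plus strand) rose from 0.813, 0.278 and 1.18 FPKM to 165, 176 and 82.7 FPKM (6.30 ± 0.39, adjusted p = 2.99e-07). Potri.010G245266 (22021294 to 22022190, plus strand) fell from 202, 256 and 205 FPKM to 0.432, 1.29 and 5.65 FPKM (-6.30 ± 0.44, adjusted p = 7.48e-07). The sources used here do not say how reads shared by near-identical copies were assigned, so values of such pairs are uncertain, and a part of read assignment in their change was not tested. Members with no description numbered 4727, of which 1406 rose and 1162 fell.

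Opposite moves within a family were counted over all members. Of 1816 families of 3 or more members under the same description, holding 7630 members, 471 (25.9%) had calls in both directions. In 143 of these the members lay at least 4 apart on the log2 scale. In 1223 families the calls ran in 1 direction only, and in 122 none was called. Every member rose in 164 families and fell in 95. No rate for groups of unrelated genes was computed. These counts therefore do not say whether copies differ more or less often than other genes. Among named examples, the 6 members of Steroid 5-alpha-reductase DET2 ranged from -6.30 to 6.30, with 1 higher and 3 lower. The 4 members of Ethylene-responsive transcription factor RAP2-3 ranged from -3.06 to 6.81, with 1 higher and 1 lower. The 11 members of 21 kDa protein had 2 higher and 7 lower.

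The biological process terms of the table gave a second view. Of 420 terms with 20 to 300 members, 24 are named by the median change of their members, 12 from each end, leaving out a term that shares over 50% of its members with one already taken. At the upper end stood chitin catabolic process, with 20 of 33 members higher, 6 lower and a median of 1.24, then galactose metabolic process (15 of 27 higher, median 1.17) and response to chitin (79 of 131 higher, median 1.15). Response to hydrogen peroxide had 36 of 62 higher, recognition of pollen 45 of 78, and ethylene biosynthetic process 14 of 23. Maturation of small-subunit ribosomal RNA had 32 of 41 higher, and 19 after scaling. The other terms of this end were primary shoot apical meristem specification, programmed cell death, response to stress, ribosomal large subunit assembly and cell surface receptor signaling pathway, with 9 to 28 members higher and medians from 0.72 to 0.85.

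At the lower end, light harvesting in photosystem I had 21 of 22 members lower and a median of -3.11, and the reductive pentose-phosphate cycle 26 of 33 and -2.63. Phloem development followed, with 18 of 21 lower and a median of -2.08, then photosynthesis (74 of 107, -2.004), xylan biosynthetic process (23 of 30, -1.84) and secondary cell wall biogenesis (42 of 58, -1.74). Chloroplast avoidance movement, by which chloroplasts leave strong light, had 14 of 22 lower and a median of -1.45, and photosystem II repair 13 of 21 lower and a median of -1.43. Chlorophyll biosynthetic process had 29 of 44 lower and 1 higher, and cell wall modification 24 of 44 lower and 6 higher. Lignin catabolic process (9 of 20 lower, 6 higher) and response to red light (22 of 41 lower, 10 higher) were mixed. Within photosynthesis 16 members rose, so this term was less uniform than its subterm on light harvesting.

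Markers of leaf tissues were read beside these results. In whole leaves, fewer cells of a type and less RNA per cell cannot be told apart. Sums and shares cover all genes of a marker list, also those left out by the filter. Of 26 mesophyll markers 24 fell, and all 26 also stand in the photosystem or Calvin cycle list, so they restate that result. The summed level of the 29 mesophyll genes in the list went from 38430 to 47000 FPKM in watered leaves to 2270 to 4038 FPKM in drought leaves. Of 24 xylem markers 13 fell and 6 rose, 3 rising without watered replicate 2 or drought replicate 6. Sums over all 52 xylem genes in the list were 141.8, 319.5 and 527.6 FPKM in watered and 64.64, 201.3 and 164.1 FPKM in drought leaves. The groups thus overlapped (exact permutation p of the share 0.3). These sums differ widely between watered libraries, and their part in the fall of secondary wall genes was not tested. Of 25 phloem markers 14 fell and 4 rose, with sums of 379.9 to 452.9 FPKM in watered and 276.3 to 1101 FPKM in drought leaves, and rises of 1 to 7 with a library left out. Of 11 epidermis and trichome markers 2 rose and 4 fell, with sums of 128.0 to 149.8 and 144.1 to 157.8 FPKM. Of 2 guard cell genes in the list 1 was a member, the potassium channel KAT1, which fell (-1.85). Both genes together summed to 5.64 to 7.13 FPKM in watered and 0.630 to 1.60 FPKM in drought leaves. None of 10 meristem and 6 root markers was a member, and their sums stayed at or below 3.889 and 1.388 FPKM in every library.

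Drought leaves also varied more among themselves. The median SD of log2(FPKM + 1) was 0.175 among the watered and 0.288 among the drought libraries, and 71.8% of members had the larger SD in drought. Among called members the change was smallest in drought replicate 6 in 47.4%, in replicate 5 in 29.5% and in replicate 4 in 23.1%. Without replicate 6, 8544 members rose and 5231 fell, against 8322 and 5210 with it.

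The interaction term with the OE line tested which WT changes differed by genotype. In OE 6367 of the same members rose and 8422 fell, and of the WT calls 9980 were also called in OE in the same direction and 225 in the opposite one. Across genes, which are not independent replicates, the changes of both genotypes had a correlation of 0.861, as a description. The interaction of genotype and drought was called in 3543 members, 15% of those tested. That count moved with single libraries: leaving out WT watered replicate 1, 2 or 3 gave 1793, 1230 and 1956, and leaving out WT drought replicate 4, 5 or 6 gave 1718, 2084 and 6297. Leaving out OE watered replicate 1 or 2 gave 1852 and 2360, and OE drought replicate 4 or 5 gave 2006 and 2160. Of the members that rose in WT and had an interaction, 978 had a lower change in OE and 537 a higher one. Of those that fell in WT, 496 had a lower change in OE and 130 a higher one. By sign, 2613 of the 3543 were lower in the OE response (11.1% of members tested) and 930 higher (3.94%).

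Over all members the median change was 0.25 in WT and -0.15 in OE on the deposited scale, and the lists are to be read against that shift. Cytosolic ribosomal proteins had a median of 0.65 in WT and -0.06 in OE, and 72 of 301 had a lower response in OE by the interaction, against 11.1% of all members. Photosystem genes had a median of -3.06 in WT and -5.05 in OE, with 19 of 64 lower in the interaction. Alternative respiration had 0.98 in WT and 2.06 in OE, with 6 of 22 higher in the interaction, against 3.94% of all members. WRKY factors had 1.11 and 1.13, with 7 of 78 higher and 9 lower.

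**Figure D5:**
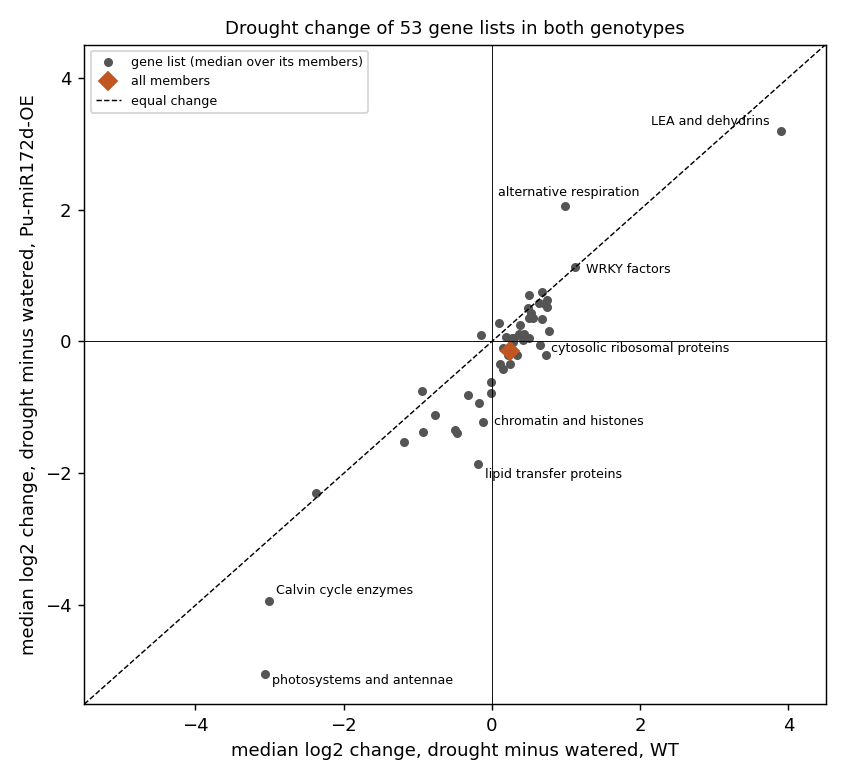
Each point is 1 of 53 gene lists, with its median log2 change on drought in WT leaves on the x axis and in Pu-miR172d-OE leaves on the y axis, the diamond marks all members, and the dashed line marks equal change. Photosystem genes lie below that line at -3.06 and -5.05, cytosolic ribosomal proteins at 0.65 and -0.06, and alternative respiration above it at 0.98 and 2.06.

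ATHB-7 (Potri.014G103000, chromosome 14, 8085842 to 8087890, minus strand), a homeobox factor induced by ABA and drought in Arabidopsis, had 14.4, 2.21 and 11.5 FPKM in watered and 856, 820 and 498 FPKM in drought WT leaves (6.37 ± 0.49, adjusted p = 1.32e-06). In OE it stood at 1242, 1854 and 1210 FPKM when watered and at 1370, 1109 and 1518 FPKM in drought (-0.09, adjusted p = 0.883). Every watered OE library thus lay above every WT drought library. Its interaction was -6.46 ± 0.69 (adjusted p = 0.000932), with an adjusted p of 0.000479 to 0.00467 over 18 alternatives. Since the naming rule takes in the largest interactions, this p is no independent support.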

How the data were processed

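Leaf RNA was sequenced from paired-end NEBNext Ultra libraries on an Illumina HiSeq, per the labels' protocols. Since this kit leaves strand unmarked, genes that overlap in antisense share reads. The authors deposited FPKM values per gene, with positions, UniProt descriptions and process terms in 1 annotated table. HISAT2 2.1.0 and Bowtie2 2.2.3 stand in the submitters' processing notes with no role given. The sources used here give neither genome build nor counting tool.

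All 12 libraries were fitted as 4 groups with limma 3.58.1 in R 4.3.3 (mean-variance trend, 8 residual and 3.75 prior degrees of freedom) on log2(FPKM + 1). The contrasts were WT drought minus WT watered and the genotype by drought interaction, with Benjamini-Hochberg adjustment over the 23602 members and a threshold of 0.05. Shares of summed FPKM were compared by exact two-sided permutation of 3 against 3 libraries, whose smallest p is 0.1. Tables were handled in Python 3.11.15 with pandas 2.3.3. The low FPKM values are multiples of what 1 fragment is worth, and 100% of members gave whole fragments in every library within a tolerance of 0.02. These fragments served for depth, for comparing replicates and for an alternative fit with voom. No pair of WT libraries agreed within sampling noise (chi-square per gene of at least 12.7), and each was counted as a replicate. That difference cannot tell separate plants from separate preparations, which the labels do not settle. The fitting code was tested on simulated data with known changes.

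Gene lists were found by patterns in the descriptions, and process terms of 20 to 300 members were taken as deposited. The members, lists, list exclusions and named-gene rule were chosen with earlier results of these data known, so none is independent support for a direction. Genes were named by rule: the 12 largest rises and falls outside the lists, up to 3 in each direction within each list, the 10 most abundant in each group and the 6 largest interactions, of which 62 with textbook roles are described. Alternatives were another pseudocount (0.1), no filter, a mean of at least 5 FPKM, median-of-ratios scaling, scaling to a common sum, WT libraries alone, voom, a change of at least 1 on the log2 scale, each library left out, and a replicate block for the interaction. A planned count of promoter motifs was not run because no promoter sequences were used here.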

Additional observations from a re-analysis of the deposited data

Results flagged for a closer look

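In 2 named genes, chosen with earlier results of these data known, the drought change differed between WT and OE leaves by the interaction term of limma. The other named genes were not screened for it here. The naming rule takes in the largest interactions among those called. The interaction p of these 2 genes and its range over alternatives are therefore no independent support. Over all members the interaction was called in 3543 of 23602 (15%). ATHB-7 (Potri.014G103000) rose in WT from 9.37 ± 6.36 to 725 ± 197 FPKM (SD, n = 3 each) and stood at 1435 ± 363 and 1332 ± 207 FPKM in OE, an interaction of -6.46 ± 0.69 (SE; limma adjusted p = 0.000932). Thaumatin-like protein 1 (Potri.005G112700), of a family of defence proteins, had 2.39, 1.65 and 1.64 FPKM in watered and 0.612, 1.27 and 0.775 FPKM in drought WT leaves (-0.62 ± 0.20, limma adjusted p = 0.0206). That call ended without watered replicate 1 (0.0855) or drought replicate 4 (0.0763), in a range of 0.00822 to 0.0855. In OE leaves it went from 0.461, 1.29 and 0.784 FPKM to 42.8, 45.0 and 43.5 FPKM (4.63, limma adjusted p = 2.64e-08). Its interaction was 5.25 ± 0.29 (limma adjusted p = 1.33e-05), with an adjusted p of 1.18e-05 to 0.000303 over 17 alternatives. No explanation was tested for either gene.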

How the results depend on the processing

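The numbers of members that rose and fell stayed within 1.5 times of 8322 and 5210 under every alternative run except these: 5540 rose with median-of-ratios scaling, 3831 rose with a change of at least 1 on the log2 scale, and 3155 fell with a mean of at least 5 FPKM, where 15516 genes were tested. With each WT library left out in turn 6535 to 8544 rose and 4590 to 5231 fell. The interaction count of 3543 ranged from 1230 to 6297 with a library left out, and the cause was not tested. With the replicate block it was 1892. No block could be fitted to the WT contrast, because watered and drought libraries share no replicate number, and same-numbered libraries of the genotypes did not deviate together (correlations of -0.518 to 0.224, with 3 of 12 libraries closest to their own number). Of 53 list medians 8 changed sign with median-of-ratios scaling, 5 with a WT library left out and 2 without the list exclusions, and in 7 lists the balance of rises and falls turned with scaling. Of 804 alternatives over 62 named genes, 794 kept direction and side of the threshold, 10 lost the call and 0 turned direction. Most of these genes were named for large changes in the same data, so this stability does not extend to calls in general. At 1 FPKM a short gene rests on few fragments, so changes of weak genes carry the larger counting error. Leaving out of a list the member that changed most, an alternative chosen after seeing the data, kept the sign of the difference in summed share in each of the 6 lists tried, and in sugar transporters it fell from 0.168 to 0.025 percentage points.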
